A study of Mus musculus with 8 samples.

Results

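The vacuolar H+-ATPase (V-ATPase) is built from subunits, several of which exist as a kidney-enriched isoform and a ubiquitous paralog made by another gene. Here 10 of the 26893 genes listed for the kidney transcriptome are described. They were chosen by name and paired by subunit, with earlier results of these data known. The kidney isoforms are Atp6v1b1, Atp6v1g3, Atp6v1c2, Atp6v0d2 and Atp6v0a4 (5 genes). Their ubiquitous paralogs are Atp6v1b2, Atp6v1g1, Atp6v1c1, Atp6v0d1 and Atp6v0a1 (5 genes). The pairs form the B, G, C, d and a subunits.

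The pump consists of a soluble V1 sector that hydrolyses ATP and a membrane V0 sector through which protons pass. In every cell it acidifies lysosomes and endosomes. In the intercalated cells of the collecting duct it is also placed in the plasma membrane at high density. There it moves protons into urine or blood, depending on the type of intercalated cell. The B1 and a4 isoforms are best known from human distal renal tubular acidosis, an inherited failure to acidify urine, and Foxi1 is a forkhead transcription factor required for intercalated cells.

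Whole kidneys of mice aged 45 days were profiled by poly(A) RNA-seq. The dKO group held 4 libraries (T9 to T12) of the genotype Tsc1f/f/Aqp2 Cre/Foxi1 knockout, in which Cre driven by Aqp2, a principal cell gene, deletes the floxed Tsc1 alleles, in a line that the study's methods describe as a cross with Foxi1-KO mice. The WT group held 4 libraries (WT1 to WT4) labelled C57BL/ 6, with no Cre or floxed allele named. The labels give neither litter, sex nor pooling, so p-values measure the spread between libraries, and no group that lost Foxi1 alone was analysed, so that the losses of Tsc1 and Foxi1 cannot be told apart.

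Total counts ranged over 17173194 to 24973213 reads in dKO libraries and 14791687 to 19179034 reads in WT libraries, and 3 reads corresponded to 0.121 to 0.207 CPM (counts scaled to library size, with TMM factors). The check of the targeted genes placed 1 library against its label. Foxi1 stood at 1.33, 1.56 and 1.41 CPM in dKO T9, T10 and T11 and at 45.9 CPM in the library labelled T12, against 26.6, 27.9, 30.1 and 33.6 CPM in WT1 to WT4, so that the library labelled T12 exceeded every WT library. The intercalated cell genes Kit (25.6 CPM), Slc4a1 (77.4 CPM) and Slc26a4 (79.8 CPM) were likewise at WT level or above in that library. Slc26a7, another intercalated cell gene, went the other way, with 1.38 CPM there against 1.60 to 3.80 CPM in WT libraries. Tsc1, whose whole-kidney RNA is a weak check of a loss in 1 cell type, ranged over 43.3 to 57.6 CPM in dKO libraries and 39.6 to 63.6 CPM in WT libraries. T9 differed from the other dKO libraries in another way: it held 0 reads of 4 Y-linked genes and 11083 reads of Xist. The other 7 libraries held at most 11 Xist reads and 2189 to 4380 reads of the Y-linked genes. By these reads T9 was female, and the other dKO libraries and all WT libraries were male. The Aqp2 level of T9, 1234 CPM, compared with 339 to 408 CPM in T10, T11 and the library labelled T12, and 225 to 314 CPM in WT libraries. The results for the kidney isoforms and for the gene lists are therefore given with and without the library labelled T12, and without T9 as well where that changes them.

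In dKO T9, T10 and T11, 4 of the 5 kidney isoforms (Atp6v1b1, Atp6v1g3, Atp6v1c2 and Atp6v0d2) lay below the lowest WT library, while none of the ubiquitous paralogs (0 of 5) did. Over all 15912 genes tested, 7.86% had this placement. The members were chosen with earlier results known, so such shares serve as background and not as a test. In the library labelled T12 the same 4 isoforms lay above the highest WT library, a combined pattern shown by 0.44% of all genes. With all 8 libraries, edgeR's quasi-likelihood test called 0 of 10 members at an adjusted p under 0.05, where 2.28% of all genes were called (1.12% lower and 1.16% higher). An unadjusted p under 0.05 was found for 0 of 10 members and 16.8% of all genes. When the library labelled T12 was left out, 3 of the 5 kidney isoforms (Atp6v1b1, Atp6v1g3 and Atp6v1c2) were called lower, and 1.14% of 16209 genes were. Without T9 and the library labelled T12, Atp6v0d2 joined them, making 4 of 5, beside 1.76% of 16388 genes. That last setting was chosen after seeing the data and keeps only T10 and T11 as dKO libraries. The library labelled T12 had been set apart by its Foxi1 and other intercalated cell genes. It also held these 4 isoforms above WT, so their calls without it are no independent evidence. No ubiquitous paralog was called in either direction under any of these 3 settings, while over all genes 2.28% were called with all libraries, 2.11% without the library labelled T12 and 3.19% without T9 as well. The median log2 fold change of the kidney isoforms was -0.55 with all libraries and -2.31 without the library labelled T12, that of the ubiquitous paralogs was -0.03 and 0.00, and that of all genes was 0.01 in both cases. In bulk kidney RNA, fewer cells of a type and less RNA per cell cannot be told apart.

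**Figure D1:**
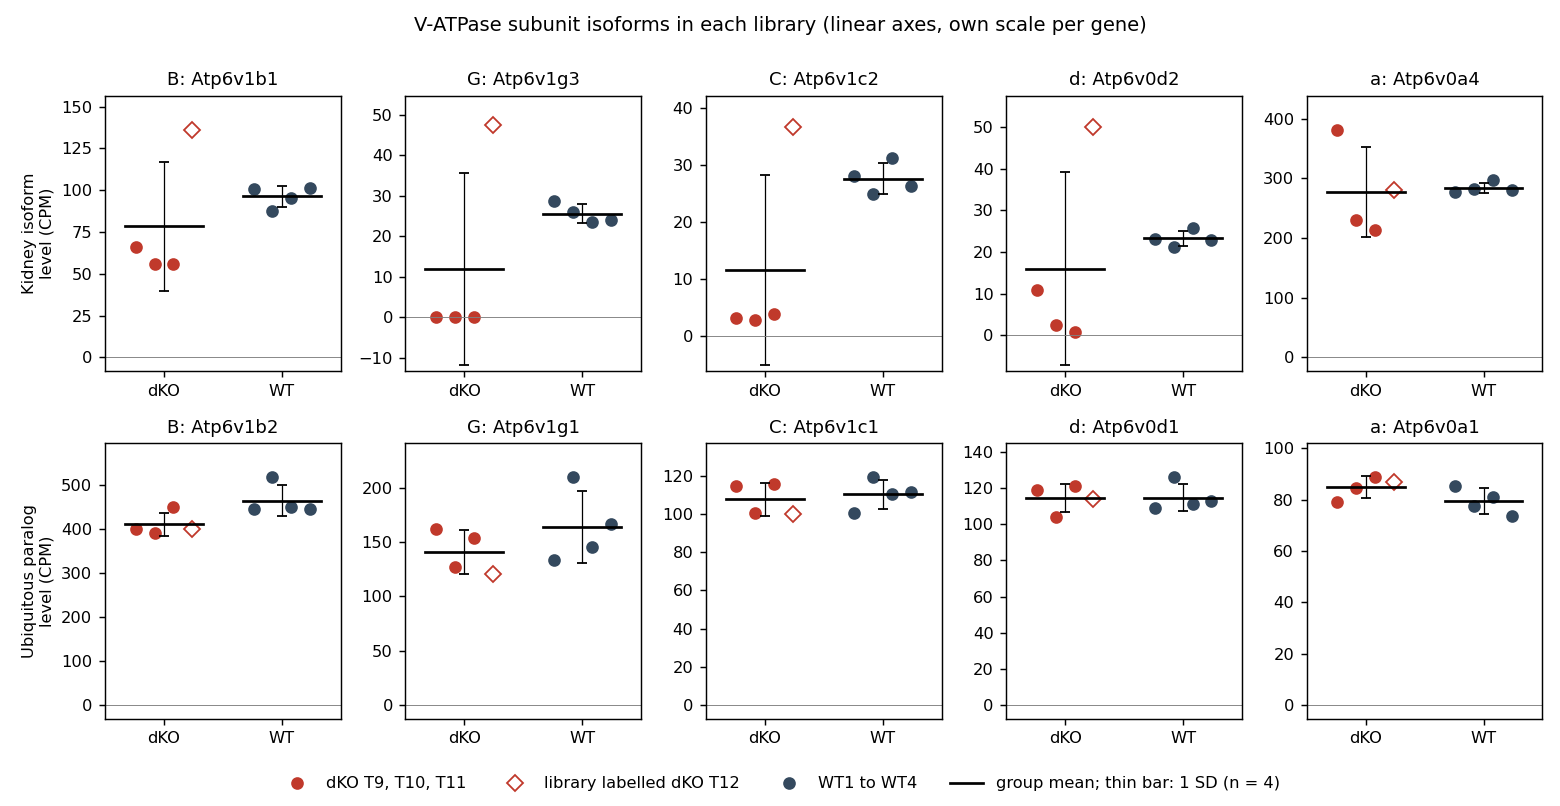
Level in CPM of each kidney isoform (upper row) and its ubiquitous paralog (lower row) in the 4 dKO and 4 WT libraries, 1 point per library, with the library labelled T12 as an open diamond, group means as horizontal lines and thin bars of 1 SD (n = 4). In 4 of the 5 upper panels the filled dKO points lie below all WT points and the diamond lies above them, whereas the dKO and WT points overlap in the Atp6v0a4 panel and in every lower panel.

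In WT kidneys the deposited FPKM, which adjust for gene length, ranked the 10 genes as follows. Atp6v1g1 was highest at 144 ± 29.8 FPKM, followed by Atp6v1b2 at 87.3 ± 6.86 and Atp6v0d1 at 63.9 ± 4.41 FPKM (SD, n = 4 each). Atp6v0a4, at 57.04 ± 1.84 FPKM, was the only kidney isoform among the leading genes, and these 4 genes had ranges that did not overlap with their neighbours in the order. Atp6v1b1 (22.0 ± 1.38 FPKM) and Atp6v1c1 (19.7 ± 1.44 FPKM) overlapped in range, as did Atp6v1g3 (13.5 ± 1.23 FPKM), Atp6v1c2 (12.7 ± 1.25 FPKM) and Atp6v0a1 (12.1 ± 0.741 FPKM) with their neighbours. Atp6v0d2 was lowest at 8.55 ± 0.687 FPKM. Hence the kidney isoform exceeded its paralog in level only in the a pair.

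The B subunit lies in the V1 head, beside the catalytic A subunit, and takes part in nucleotide binding. Atp6v1b1 (ENSMUSG00000006269, chromosome 6, 83742990 to 83758855, plus strand, GRCm38) encodes B1, the isoform of intercalated cells. Its level was 66.1, 55.9 and 56.1 CPM in dKO T9, T10 and T11 and 136 CPM in the library labelled T12, against 101, 87.7, 95.6 and 101 CPM in WT1 to WT4. The first 3 dKO libraries were tightly grouped below all WT libraries, at 68.6%, 58.0% and 58.3% of the WT mean, and the library labelled T12 stood at 141%. With all libraries the log2 fold change was -0.30 ± 0.28 (SE; edgeR adjusted p = 0.662). Without the library labelled T12, Atp6v1b1 fell, by 0.70 ± 0.0969 on the log2 scale (SE; edgeR adjusted p = 0.00655), or 1.62-fold, the smallest of the 3 falls called.

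The ubiquitous paralogs are given with all libraries; without the library labelled T12 their log2 fold changes ran from -0.17 to 0.08, and without T9 as well from -0.22 to 0.13, and in both cases the edgeR adjusted p was 0.507 or higher. Atp6v1b2 (ENSMUSG00000006273, chromosome 8, 69088646 to 69113711, plus strand) encodes B2, found in nearly all cells. It had 399.8, 389, 449 and 400.1 CPM in the libraries labelled dKO T9 to T12, against 445, 516, 448 and 445 CPM in WT1 to WT4. The groups overlapped, since T11 lay above 3 WT libraries, and the log2 fold change was -0.18 ± 0.0916 (SE; edgeR adjusted p = 0.367). The WT spread came mainly from WT2.

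Because Foxi1 is a forkhead factor, the forkhead letters GTAAACA and ATAAACA were looked for on both strands in the RefSeq promoter windows of the members (GRCm38.p6, 250 bases before to 50 after the start site). Windows were given for 6 of the 10 members, namely Atp6v1b1, Atp6v1g3, Atp6v1c2, Atp6v0a4, Atp6v0d1 and Atp6v0a1. A match was found in 1 of them, Atp6v1b1, and in 3.65% of all 32851 windows for GTAAACA, 4.6% for ATAAACA and 7.97% for either. The 250 bases before the start site are shown for the 3 kidney isoforms called lower without the library labelled T12, 5′ to 3′ on the gene's strand, with the match in capitals. It begins 98 bases before the start site, at position 153 of the window, and reads as GTAAACA on the opposite strand. The regions are chr6:83742767-83743016 (plus strand), chr1:138273488-138273737 (plus strand) and chr12:17324731-17324980 (minus strand).
Atp6v1b1: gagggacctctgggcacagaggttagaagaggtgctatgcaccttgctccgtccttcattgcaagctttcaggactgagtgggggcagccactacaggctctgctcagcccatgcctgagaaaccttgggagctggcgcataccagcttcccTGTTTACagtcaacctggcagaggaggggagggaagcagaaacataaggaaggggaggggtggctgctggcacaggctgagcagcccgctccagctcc
Atp6v1g3: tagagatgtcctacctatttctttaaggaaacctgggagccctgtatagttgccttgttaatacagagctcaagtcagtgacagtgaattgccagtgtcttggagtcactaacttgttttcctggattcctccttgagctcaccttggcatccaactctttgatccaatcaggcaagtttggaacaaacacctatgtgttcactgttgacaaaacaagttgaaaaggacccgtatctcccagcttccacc
Atp6v1c2: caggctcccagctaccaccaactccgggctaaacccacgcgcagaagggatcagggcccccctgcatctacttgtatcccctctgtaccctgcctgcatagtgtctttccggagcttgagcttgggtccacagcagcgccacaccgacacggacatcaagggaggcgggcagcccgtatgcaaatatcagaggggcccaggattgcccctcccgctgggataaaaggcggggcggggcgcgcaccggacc
A match of letters is no evidence of binding, and its absence from Atp6v1g3 and Atp6v1c2 says only that these letters are not in this window. The Atp6v1b1 and Atp6v1c2 windows belong to start sites within the deposited gene bounds.

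The G subunit is part of the peripheral stalks that hold V1 on V0. Atp6v1g3 (ENSMUSG00000026394, chromosome 1, 138273738 to 138289462, plus strand) encodes G3, the kidney form, and showed the most complete loss of the 10 genes. It had 0, 1 and 0 reads in dKO T9, T10 and T11, which is 0, 0.0578 and 0 CPM, and 863 reads or 47.5 CPM in the library labelled T12, against 28.7, 26.0, 23.5 and 24.1 CPM in WT1 to WT4. The first 3 dKO libraries were at or below the floor of 3 reads, whereas the library labelled T12 stood at 186% of the WT mean. Pooled, 1 read in T9 to T11 compared with 1766 reads in WT libraries, a WT over dKO ratio of 1663 after scaling for library size (95% interval 298 to 65725, exact, counting error only). After the library labelled T12 was left out, the gene was called lower by edgeR (adjusted p = 4.73e-07); the fitted size depends on the prior count and is not used. With all libraries the log2 fold change was -1.13 ± 1.66 (SE; edgeR adjusted p = 0.802), although limma-voom called it with an adjusted p of 0.0453, the only kidney isoform it called lower (1 of 5, beside 1.16% of all genes).

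Atp6v1g1 (ENSMUSG00000039105, chromosome 4, 63544772 to 63550750, plus strand) encodes G1, the widely expressed form. Its level was 162, 127, 154 and 120.5 CPM in the libraries labelled dKO T9 to T12, against 133, 209.5, 146 and 167 CPM in WT1 to WT4. The groups overlapped, with WT2 highest of all, and the log2 fold change was -0.22 ± 0.15 (SE; edgeR adjusted p = 0.52).

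The C subunit bridges V1 and V0 and leaves the pump when the sectors come apart. Atp6v1c2 (ENSMUSG00000020566, chromosome 12, 17284721 to 17329359, minus strand) encodes C2, whose expression is restricted to a few tissues including kidney. It had 3.19, 2.89 and 3.83 CPM in dKO T9, T10 and T11 and 36.6 CPM in the library labelled T12, against 28.1, 24.9, 31.2 and 26.2 CPM in WT1 to WT4. A residue of 10.5% to 13.9% of the WT mean thus remained in the first 3 dKO libraries, unlike Atp6v1g3, while the library labelled T12 stood at 133%. Without the library labelled T12, Atp6v1c2 fell by 3.05 ± 0.147 on the log2 scale (SE; edgeR adjusted p = 5.81e-06), or 8.3-fold. With it, the log2 fold change was -1.26 ± 0.888 (SE; edgeR adjusted p = 0.546). Exons of Atp6v1c2 share 50 bases with Pdia6 on the opposite strand, and no source used here says whether strand was used in counting.

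Atp6v1c1 (ENSMUSG00000022295, chromosome 15, 38661933 to 38692446, plus strand) encodes C1, the general form. It had 115, 100.8, 116 and 100.1 CPM in the libraries labelled dKO T9 to T12, against 100.4, 119, 110.4 and 112 CPM in WT1 to WT4. The ranges of both groups nearly coincided, with a log2 fold change of -0.03 ± 0.0841 (SE; edgeR adjusted p = 0.896).

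The d subunit joins the central stalk to the V0 ring. Atp6v0d2 (ENSMUSG00000028238, chromosome 4, 19876841 to 19922605, minus strand) encodes d2, a form of kidney and also of osteoclasts. Here T9, T10 and T11 were widely spread: T9 had 10.9 CPM (246 reads), T10 2.37 CPM (41 reads) and T11 0.725 CPM (18 reads), and the library labelled T12 had 49.98 CPM, against 23.1, 21.2, 25.8 and 22.9 CPM in WT1 to WT4. All of T9, T10 and T11 lay below the WT libraries, but T9 was 15.0-fold above T11, and the library labelled T12 stood at 215% of the WT mean, the highest such value among the 10 genes. The log2 fold change was -0.55 ± 1.08 (SE; edgeR adjusted p = 0.86) with all libraries and -2.31 ± 0.77 (SE; edgeR adjusted p = 0.223) without the library labelled T12. After T9 was left out as well, Atp6v0d2 fell by 3.995 ± 0.333 on the log2 scale (SE; edgeR adjusted p = 0.000186). This fit was chosen after seeing the data. It keeps only T10 and T11, the dKO libraries with the lowest Atp6v0d2, so its smaller p is no independent evidence. T9 is also the library without Y-linked reads, and the part of that in the value was not tested. The 8 macrophage markers were listed because osteoclasts and macrophages share a lineage. They summed to 237 to 291 CPM in dKO libraries and 234 to 317 CPM in WT libraries. With all libraries 0 of 8 were called, beside 2.28% of all genes.

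Atp6v0d1 (ENSMUSG00000013160, chromosome 8, 105524465 to 105566047, minus strand) encodes d1, present in all tissues. Its level was 119, 104, 121 and 114 CPM in the libraries labelled dKO T9 to T12, against 109, 126, 111 and 113 CPM in WT1 to WT4. It had the smallest group difference, with means of 115 ± 7.51 CPM in dKO and 115 ± 7.61 CPM in WT (SD, n = 4 each) and a log2 fold change of 0.00 ± 0.0795 (SE; edgeR adjusted p = 0.996).

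The a subunit is the V0 protein that lines the proton path and directs the pump to its membrane. Atp6v0a4 (ENSMUSG00000038600, chromosome 6, 38048483 to 38124586, minus strand) encodes a4, the kidney form, and it did not follow the other kidney isoforms. It had 381, 230.5, 214 and 281 CPM in the libraries labelled dKO T9 to T12, against 276, 282, 297 and 281 CPM in WT1 to WT4. T10 and T11 lay below every WT library, T9 above every WT library, and the library labelled T12 within them. The log2 fold change was -0.04 ± 0.162 (SE; edgeR adjusted p = 0.941), and -0.05 ± 0.184 (SE; edgeR adjusted p = 0.941) without the library labelled T12. After T9 was also left out, it was -0.35 ± 0.0893 (SE; edgeR adjusted p = 0.0659), which missed the threshold. T9 also held the highest sum of the principal cell markers, 2015 CPM against 895 to 999.9 CPM in T10, T11 and the library labelled T12, and 697 to 807 CPM in WT libraries; their part in the Atp6v0a4 value was not tested. Its exons share 259 bases with D630045J12Rik on the same strand and 62 bases with Tmem213 on the opposite strand.

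Atp6v0a1 (ENSMUSG00000019302, chromosome 11, 101009452 to 101063719, plus strand) encodes a1, a ubiquitous form prominent in neurons. It had 79.0, 84.6, 88.7 and 87.1 CPM in the libraries labelled dKO T9 to T12, against 85.4, 77.5, 81.1 and 73.8 CPM in WT1 to WT4. The groups overlapped, and the log2 fold change was 0.09 ± 0.0736 (SE; edgeR adjusted p = 0.573).

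To ask whether the paralogs of 1 subunit differed in their response, the log2 ratio of kidney isoform to ubiquitous paralog was taken in each library, which cancels library size. To see how far reads could be shared within a pair, the annotated transcripts were compared, and the longest run of identical bases between transcripts of a pair was 26 for B, 11 for G, 15 for C, 17 for d and 18 for a. The 5 pairs were tested with exact two-sided permutation tests (2 times the smaller tail) over the 70 splits of 8 libraries, where the smallest possible p was 0.0286. The mean difference in log2 ratio, dKO minus WT, was -0.22 for B (p = 0.543, exact), -6.74 for G (p = 0.143, exact), -2.16 for C (p = 0.143, exact), -2.05 for d (p = 0.229, exact) and -0.17 for a (p = 0.4, exact). None of the 5 passed. In the B, G, C and d pairs the ratio in T9, T10 and T11 was below, and that in the library labelled T12 above, every WT library. Leaving out the library labelled T12 gave differences of -0.53 for B, -9.43 for G, -3.06 for C and -3.11 for d, each with an exact p of 0.0571, the smallest that 2 times the smaller tail can give over 35 splits. Taken instead as the share of splits with an absolute difference at least as large, a choice made after seeing the data, the exact p was 0.0286, the smallest possible, for G, C and d and 0.0571 for B. The a pair differed by -0.18 (p = 0.457, exact, either way). When only T9 was left out, the a pair differed by -0.37 (exact p = 0.0571 by the tail and 0.0286 by the absolute difference).

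As a share of the summed FPKM of its pair, Atp6v1c2 made up 6.67%, 6.87% and 7.86% in dKO T9, T10 and T11 and 48.5% in the library labelled T12, against 41.9%, 34.96%, 42.1% and 37.7% in WT1 to WT4. The sum of the C pair was also lower, at 19.2 to 22.3 FPKM in T9 to T11, against 30.7 to 34.0 FPKM in WT libraries. Atp6v1b1 made up 13.2% to 16.7% of the B pair in T9 to T11 and 29.2% in the library labelled T12, against 17.1% to 21.6% in WT libraries. Atp6v1g3 made up at most 0.0273% of the G pair in T9 to T11, against 6.94% to 11.5% in WT libraries, and Atp6v0d2 0.393% to 5.70% of the d pair, against 10.02% to 13.3% in WT libraries. In the B, G, C and d pairs the ubiquitous paralog supplied the larger part of the sum in every library. Atp6v0a4 dominated its pair throughout, with 86.4%, 78.2%, 76.1% and 80.9% in the libraries labelled dKO T9 to T12, against 81.0%, 82.8%, 82.8% and 83.4% in WT1 to WT4. The other genes of the G and a subunits (Atp6v1g2, Atp6v0a2 and Tcirg1) are not part of these shares.

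**Figure D2:**
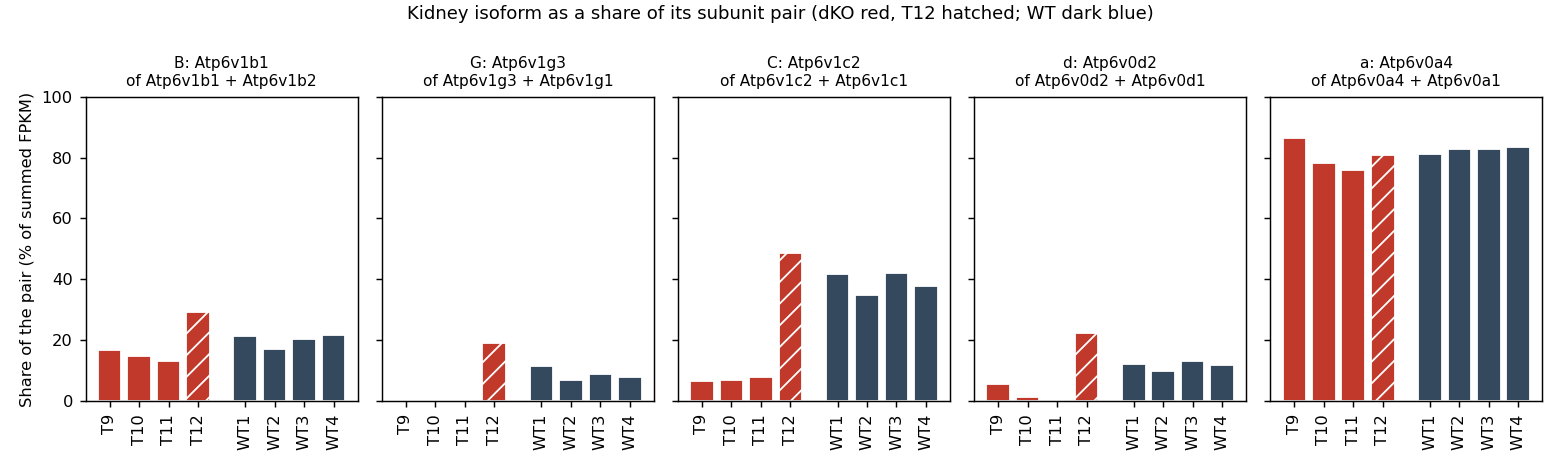
FPKM of the kidney isoform as a percentage of the summed FPKM of its pair, 1 bar per library, with dKO bars in red (the library labelled T12 hatched) and WT bars in dark blue. In the B, G, C and d panels T9 to T11 lie below the WT bars and the library labelled T12 lies above them; the a panel runs from 76.1% to 86.4% across all libraries.

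The remaining subunits of the pump were read from a list of 13 genes, of which 12 were tested; Atp6v1e2 was not analysed here. With all libraries 0 of 12 were called, beside 2.28% of all genes. Their log2 fold changes ran from -0.22 to 0.21 and the median was -0.06, beside 0.01 over all genes. Without the library labelled T12, 0 of 12 were called, beside 2.11% of all genes, and the median was -0.05. Atp6v1a, the catalytic A subunit, had 574, 615, 609.8 and 659 CPM in the libraries labelled dKO T9 to T12, against 675, 665, 729 and 684 CPM in WT1 to WT4. All 4 dKO libraries lay below the WT libraries, as for 6.06% of all genes, but the log2 fold change was only -0.16 ± 0.0861 (SE; edgeR adjusted p = 0.376). Atp6v1e1, a stalk subunit, Atp6v1f, a subunit of the central stalk, and Atp6v0b, a subunit of the proton-carrying ring, had log2 fold changes of -0.09, 0.09 and -0.04. Over the 17 subunit genes other than the kidney isoforms, the largest absolute log2 fold change was 0.218 with all libraries and 0.28 without the library labelled T12.

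**Figure D3:**
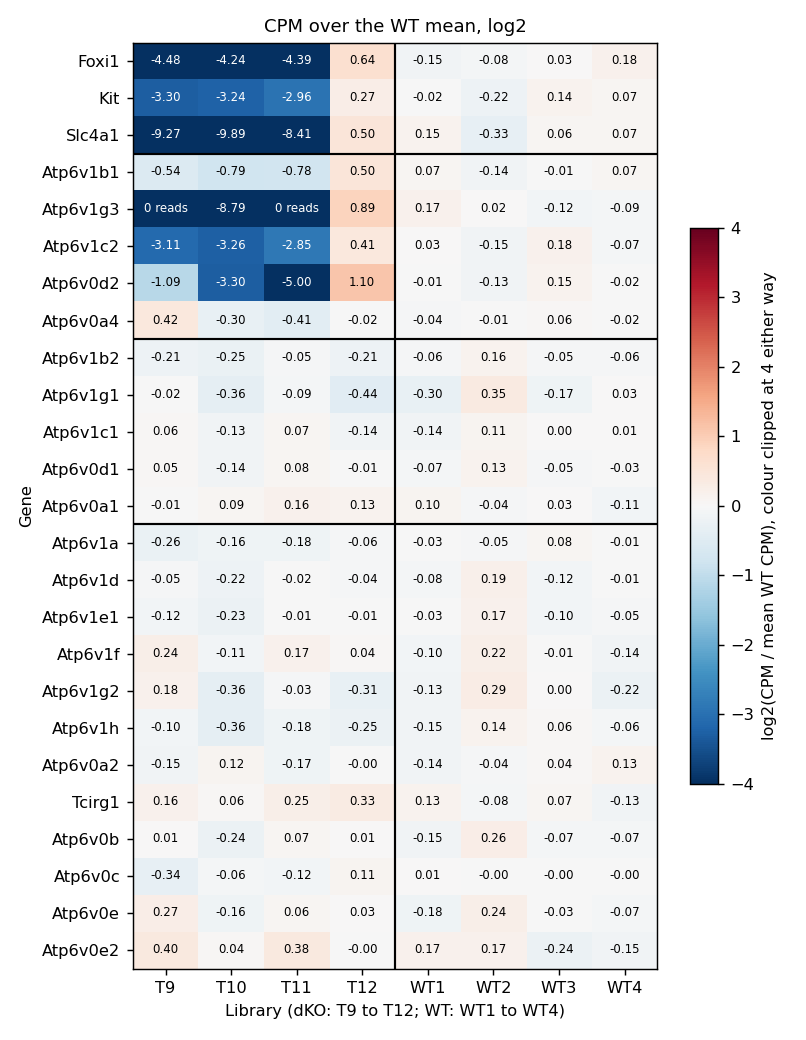
Log2 of the CPM in each library over the WT mean for 3 intercalated cell genes, the 5 kidney isoforms, the 5 ubiquitous paralogs and the 12 other subunit genes tested, with dKO libraries left of WT libraries and colour clipped at 4 in either direction. Foxi1, Kit, Slc4a1, Atp6v1b1, Atp6v1g3, Atp6v1c2 and Atp6v0d2 are blue in T9 to T11, faintly for Atp6v1b1 and for Atp6v0d2 in T9 (-1.09), and pale to mid red in the library labelled T12 (0.27 for Kit to 1.10 for Atp6v0d2), whereas Atp6v0a4 is at 0.42 in T9 and -0.41 in T11.

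Of 14 accessory and assembly genes, 0 were called with all libraries and 1 without the library labelled T12. Over all genes 2.28% and 2.11% were called. The 1 called was Tldc2, a gene of the TLDc family, whose members bind the V-ATPase. Tldc2 had 0.531, 0.866 and 0.403 CPM in dKO T9, T10 and T11 and 5.28 CPM in the library labelled T12, against 4.90, 3.90, 5.39 and 5.90 CPM in WT1 to WT4. Its placement in T9 to T11 was that of the 4 kidney isoforms, at low levels, but the library labelled T12 stayed within the WT range. Without the library labelled T12 it fell by 3.09 ± 0.303 on the log2 scale (SE; edgeR adjusted p = 0.000814), and with all libraries its log2 fold change was -1.54 ± 0.737 (SE; edgeR adjusted p = 0.344). Atp6ap1 and Atp6ap2, accessory subunits of V0, had log2 fold changes of 0.01 and 0.04, Rogdi, a partner in V1 and V0 assembly, 0.05 and Tmem9, a membrane protein that binds Atp6ap2, -0.04, and none was called.

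**Figure D4:**
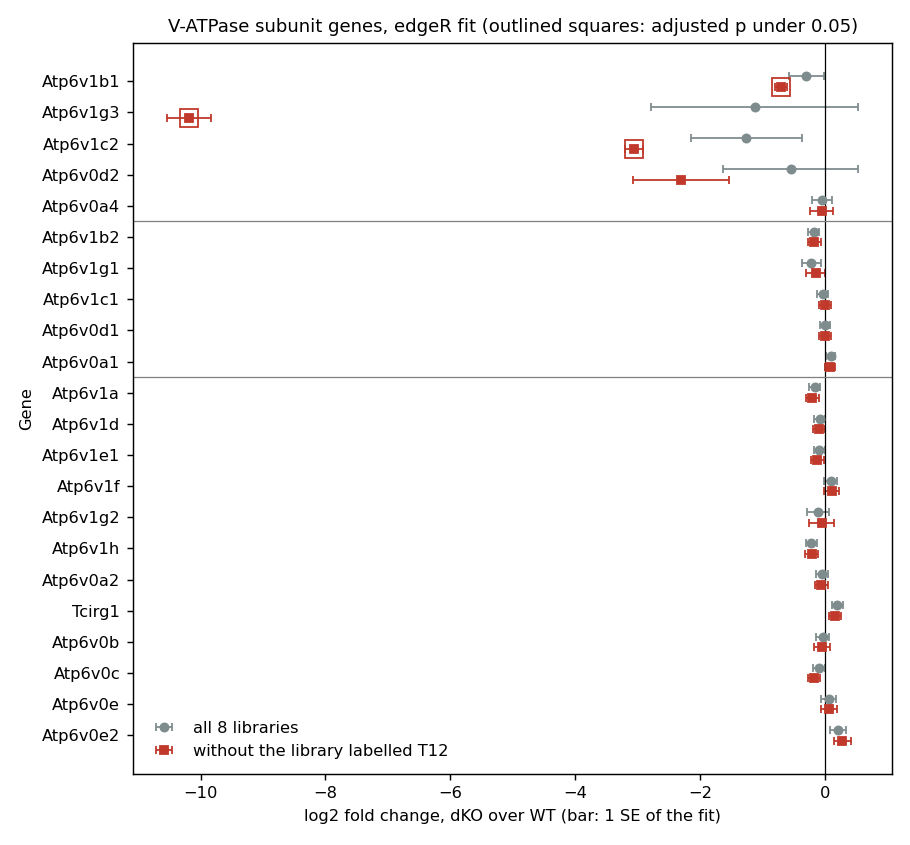
Log2 fold change, dKO over WT, from the edgeR fit for the 22 subunit genes tested, with all 8 libraries (grey circles) and without the library labelled T12 (red squares), bars of 1 SE and outlined squares where the adjusted p was under 0.05. Outlined are Atp6v1b1, Atp6v1g3 and Atp6v1c2, all without the library labelled T12; the fitted position of Atp6v1g3 depends on the prior count.

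The other proton pumps of the collecting duct are the H+/K+-ATPases. Atp4a, the gastric catalytic subunit, had 107, 43.4, 57.4 and 103 CPM in the libraries labelled dKO T9 to T12, against 54.9, 38.9, 47.4 and 39.0 CPM in WT1 to WT4. T9 and the library labelled T12 were high and T10 lay within the WT range, and the log2 fold change was 0.79 ± 0.291 (SE; edgeR adjusted p = 0.223), 0.62 without the library labelled T12 and 0.17 without T9 as well, with no call in any of these. Atp12a, the colonic form, stayed at 0.564 to 3.58 CPM in dKO libraries and 0.724 to 1.87 CPM in WT libraries, and Atp4b, the beta subunit, held too few reads to be tested.

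Most of the listed intercalated cell markers were lower in T9 to T11, as most kidney isoforms were. Of 13 such markers, 1 (Slc26a7) was called lower with all libraries and 10 others without the library labelled T12, and 11 had T9, T10 and T11 below every WT library. Over all genes 1.12% were called lower with all libraries and 1.14% without the library labelled T12, and 7.86% had that placement. Foxi1, Kit, Slc4a1 and Slc26a4 had set that library apart and were among the 10. Their calls without it are therefore no independent evidence. The summed level of the 13 markers was 464 to 763 CPM in T9 to T11, against 765 to 868 CPM in WT libraries. In the library labelled T12 it was 1033 CPM. Car2 (356 to 564 CPM) and Rhcg (95.7 to 187 CPM) made up most of the sum in T9 to T11. In WT libraries Car2 had 258 to 367 CPM and Rhcg 86.6 to 106 CPM. The sum therefore says little about the other markers. Loss was uneven within the list. In T9 to T11 there were 0 Hmx2 reads, at most 1 Aqp6 read and at most 4 Slc4a1 reads per library. Of its WT mean, Foxi1 kept 4.49% to 5.28% (1.33 to 1.56 CPM) and Kit 10.2% to 12.9% (2.17 to 2.74 CPM). Slc26a7 kept 27.8% to 40.2% (0.886 to 1.28 CPM) and Rhbg 20.2% to 44.9% (1.77 to 3.94 CPM). In the library labelled T12, Slc26a7 stood at 43.1%. Car2 and Rhcg did not have T9, T10 and T11 below the WT libraries. Their log2 fold changes were 0.375 and 0.491 with all libraries, and in T9 they stood at 172% and 194% of the WT mean. The part of the intercalated cell markers in the fall of the kidney isoforms was not tested. Of 9 principal cell markers tested 1 (Hsd11b2) was called higher, beside 1.16% of all genes. With all libraries 9 of 9 log2 fold changes were above 0, with a median of 0.44, beside 0.01 over all genes. Without the library labelled T12, 8 of 9 were above 0, with a median of 0.48. Without T9 as well, 7 of 9 were above 0, with a median of 0.11. Hsd11b2 was the 1 gene called in each case. Of 8 proximal tubule markers 0 were called in each case, beside 2.28%, 2.11% and 3.19% of all genes in the same order.

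Because the pump also serves lysosomes, 13 lysosomal genes were read. With all libraries 1 was called (Hexa, higher, log2 fold change 0.66, edgeR adjusted p = 0.0315), beside 2.28% of all genes. Without the library labelled T12 0 were called, beside 2.11% of all genes. Hexa then had a log2 fold change of 0.67 but an edgeR adjusted p of 0.0553. The median log2 fold change was -0.09 in both cases, beside 0.01 over all genes.

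The 8 genes outside the 10 whose pattern over the 8 libraries was most like the mean of the 5 kidney isoforms, out of 12377 ranked, were Malrd1 (r = 0.988), Sh3bgrl2 (0.984), Rhbg (0.984), Slc4a9 (0.973), Avpr1a (0.972), AC078895.1 (0.969), 9130008F23Rik (0.963) and Kbtbd2 (0.96). These r values describe only 8 libraries and carry no test. In each of the 8 genes T9 to T11 lay below all other libraries. Malrd1 had 6.33, 2.31 and 1.37 CPM in dKO T9, T10 and T11 and 18.2 CPM in the library labelled T12, against 8.505 to 12.2 CPM in WT libraries. Rhbg, an ammonia transporter, had 3.94, 2.77 and 1.77 CPM in T9, T10 and T11 and 13.5 CPM in the library labelled T12, against 8.15 to 9.30 CPM in WT libraries. Slc4a9, an anion exchanger of intercalated cells, had 2.52, 0.809 and 0.282 CPM in T9, T10 and T11 and 85.1 CPM in the library labelled T12, against 61.7 to 96.0 CPM in WT libraries. Kbtbd2, with 25.9 to 29.3 CPM in dKO libraries and 28.6 to 29.6 CPM in WT libraries, varied far less, and WT2 was its highest library.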

How the data were processed

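Total kidney RNA was poly(A) selected and sequenced on an Illumina HiSeq instrument (4 dKO and 4 WT libraries). The authors aligned reads with HISAT2 (2.0.4) and counted genes with HTSeq (0.9.1). The genome build and strand setting are not given in the sources used here, but the deposited coordinates of all 10 genes equal those of the GRCm38 annotation. The deposited table held raw counts per gene and FPKM, which the authors computed from gene length and sequencing depth, for each library, and the authors' count signal per library after scaling, which was not used. Its columns of fold changes and p-values from the authors' own comparison were not used either.

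Counts were fitted with edgeR (4.0.16; R 4.3.3): TMM factors, filterByExpr (minimum count 10, total 15), and a robust quasi-likelihood test over all 15912 genes kept, with Benjamini-Hochberg adjustment and a threshold of 0.05. All 10 genes passed the filter. FPKM were used to compare levels between genes, for the share and sum of each pair in each library, and in the alternatives that name them. Ratios within a pair were taken as log2 of counts, each plus 0.5, and tested by exact permutation. Intervals and floors cover counting error only. On simulated data, 26.9% of 1.5-fold, 68.7% of 2-fold and 97% of 4-fold changes were found (15912 genes, dKO over WT). Alternatives were DESeq2 (1.42.0), limma-voom (limma 3.58.1), other factors and filters, log2(FPKM + 1) and log2(FPKM + 0.1) with limma, and leaving out each library.

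The genes and lists were chosen with earlier results of these data known. All 10 genes are named whatever their values, and from other V-ATPase lists each gene past the threshold, otherwise at most the 4 with the highest mean FPKM. Foxi1, Tsc1, Kit, Slc4a1, Aqp2 and Slc26a4 check the labels, and the 8 genes nearest in pattern were ranked by Pearson's r of log2(CPM + 0.1) among genes of at least 1 FPKM in WT. Markers named to describe a list were chosen after their values were seen. Tsc1-KO mice named in the series text were not analysed here.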

Additional observations from a re-analysis of the deposited data

Results flagged for a closer look

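In groups of 4 libraries, a highest or lowest library whose gap to its nearest neighbour exceeded Dixon's 95% critical share of the group's range was looked at again. This was so for 11 of 44 groups of values. Chance gives about 1 in 20 for independent groups chosen without regard to their values, which these are not: they share 8 libraries, and their genes were chosen with earlier results known. In 9 of the 11 the library was the one labelled T12: Atp6v1b1 (136 CPM), Atp6v1g3 (47.5 CPM), Atp6v1c2 (36.6 CPM), Tldc2 (5.28 CPM), the log2 ratio of Atp6v1c2 to Atp6v1c1 counts (-1.45), Foxi1 (45.9 CPM), Kit (25.6 CPM), Slc4a1 (77.4 CPM) and Slc26a4 (79.8 CPM), each far above the other dKO libraries. The others were Aqp2 in T9 (1234 CPM), above the other dKO libraries, and Atp6v1b2 in WT2 (516 CPM), above the other WT libraries.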

How the results depend on the processing

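DESeq2 called 505 genes higher and 460 lower, against 184 and 179 with edgeR, and leaving out 1 library gave 57 to 303 higher and 78 to 325 lower. Without T9 and the library labelled T12, an alternative chosen after seeing the data, 289 were lower. The number of kidney isoforms called lower was 1 with limma-voom (Atp6v1g3), 0 to 3 when 1 library was left out (3 only without the library labelled T12) and 4 without T9 and the library labelled T12. It was 0 under every other alternative, DESeq2 included, which gave no adjusted p for Atp6v1g3 and Atp6v1c2. Of the ubiquitous paralogs 0 were called under any alternative. Small log2 fold changes changed sign: when 1 library was left out, Atp6v0a4 ran from -0.23 to 0.067 (above 0 without T10 or T11), Atp6v1c1 from -0.077 to 0.0056 (above 0 without WT2 or the library labelled T12) and Atp6v0d1 from -0.029 to 0.046 (above 0 without T10, WT2 or the library labelled T12). Atp6v0d1 was also 0.0103 with upper-quartile factors and 0.000227 with no filter. The 5 pair ratios kept their sign in all alternatives. Leaving out 1 library, dKO or WT, gave B -0.53 to -0.05, G -9.43 to -5.57, C -3.06 to -1.82, d -3.11 to -1.06 and a -0.37 to -0.04; there 2 times the smaller tail cannot go below 0.0571, so missing 0.05 says nothing. By the absolute difference, added after seeing the data, the exact p was 0.0286 for G, C and d without the library labelled T12 and for a without T9.

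Of list counts, the accessory list had 0 to 1 called when 1 library was left out and 1 without T9 and the library labelled T12. The intercalated list (1 called) had 6 with limma-voom, 0 with log2(FPKM + 1) or log2(FPKM + 0.1), 0 to 10 when 1 library was left out and 10 without T9 and the library labelled T12. The principal cell list (1 called) had 0 with limma-voom, non-robust estimation and both FPKM scales, and 0 to 2 when 1 library was left out. The proximal list had 1 with DESeq2 and 0 to 1 when 1 library was left out, and the lysosome list (1 called) 2 with DESeq2, 0 with both FPKM scales, 0 to 1 when 1 library was left out and 0 without T9 and the library labelled T12. Fewer libraries enter the fits that leave libraries out; other causes were not tested. No paired analysis was possible because the groups share no replicate numbers. Levels below 0.121 to 0.207 CPM (3 reads) were not resolved.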
